A study of Mus musculus with 2 samples.

Results

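The hepatocyte identity transcription factors examined here were Hnf4a, Foxa1, Foxa2, Foxa3, Foxq1, Cebpa, Cebpb, Onecut2 and Prox1. They were chosen by gene symbol and make up 9 of the 19465 genes in the files. Foxq1 and Cebpb were set against the other 7, which are called the core factors. The measurements came from spatial transcriptomics (ST) of formalin-fixed, paraffin-embedded mouse liver on the 10x Visium platform, in which probe pairs against each transcript are captured on an array of barcoded spots and counted as unique molecular identifiers (UMIs). Each spot can lie under several cells, which may be of different types. The knockout, AEG-1ΔMAC, and its floxed control, AEG-1fl/fl, were each represented by 1 liver section, and the study calls the mice littermates. In AEG-1ΔMAC mice, Cre recombinase expressed from the lysozyme locus deletes floxed Mtdh, the gene of AEG-1, in myeloid cells such as macrophages, so that hepatocytes of both mice keep the gene. AEG-1fl/fl mice carry the floxed alleles without that deletion. By the labels both mice were 27 weeks old and had received HF/HSD, a high fat and high sugar diet, since the age of 7 weeks, for 20 weeks in all, but the methods of the study describe this assay as done on mice fed control diet. The diet of these mice is therefore unresolved.

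Hepatocyte identity is kept by a small network of transcription factors that bind each other's genes and the genes of liver function. HNF4A is a nuclear receptor that maintains the hepatocyte programme. FOXA1, FOXA2 and FOXA3 are forkhead proteins that open chromatin at liver enhancers, and FOXQ1 is a forkhead protein of another subfamily. CEBPA and CEBPB are basic leucine zipper proteins that bind the same sites, CEBPA being linked to the quiescent, differentiated hepatocyte and CEBPB to the acute phase response, regeneration and gluconeogenesis. ONECUT2 is a cut-homeodomain factor of liver and bile duct development, and PROX1 is a homeodomain factor that hepatocytes share with lymphatic endothelium.

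The AEG-1ΔMAC library held 45453286 UMIs in 2140 filtered spots (median of 20929.5 a spot), and the AEG-1fl/fl library 50322850 UMIs in 2540 spots (median of 18285). Each genotype was 1 library, so the spread between mice is unknown and no test was run. Intervals are 95% intervals and cover counting error only. Levels are given as UMIs scaled to the same total in each library (CPM), and they are compared between libraries gene by gene, because probes of different genes bind with different efficiency. Albumin made up 8.80% of the knockout library against 14.2% of the control library. Over the 6933 genes that averaged 10 CPM or more, the log2 ratio had a median of 0.15, a 5th percentile of -0.29 and a 95th percentile of 0.54. Mtdh itself had 66.3 and 60.2 CPM, which does not check the deletion, since the hepatocytes in the same spots keep the gene. In a spot, fewer cells of a type and less RNA per cell cannot be told apart.

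All 9 factors were measured well above background. Their lowest level was 9.32 CPM, for Foxa1 in AEG-1fl/fl, whereas 12 genes of other tissues, such as pancreas, lung and brain, had at most 0.40 CPM (AEG-1ΔMAC) or 0.52 CPM (AEG-1fl/fl), and 7 of them had no UMI in either library. The factors fell into 3 groups by their ratio between the genotypes. Foxq1 stood alone at the top, Foxa1, Cebpb, Foxa2 and Onecut2 lay near or above a 2-fold difference, and Hnf4a, Cebpa, Foxa3 and Prox1 lay well below it. By the rule of at least 2-fold with an interval on the same side of 1, 4 of the 9 factors were higher in AEG-1ΔMAC (Foxq1, Foxa1, Cebpb and Foxa2), against 1.27% of all genes compared, and 0 were lower, against 0.519%. These factors, and the gene lists counted below, were chosen with earlier results of these data known. The shares over all genes are therefore a background and no test of enrichment. The median log2 ratio was 1.0 over the 9 factors and 0.46 over the 7 core factors.

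**Figure D1:**
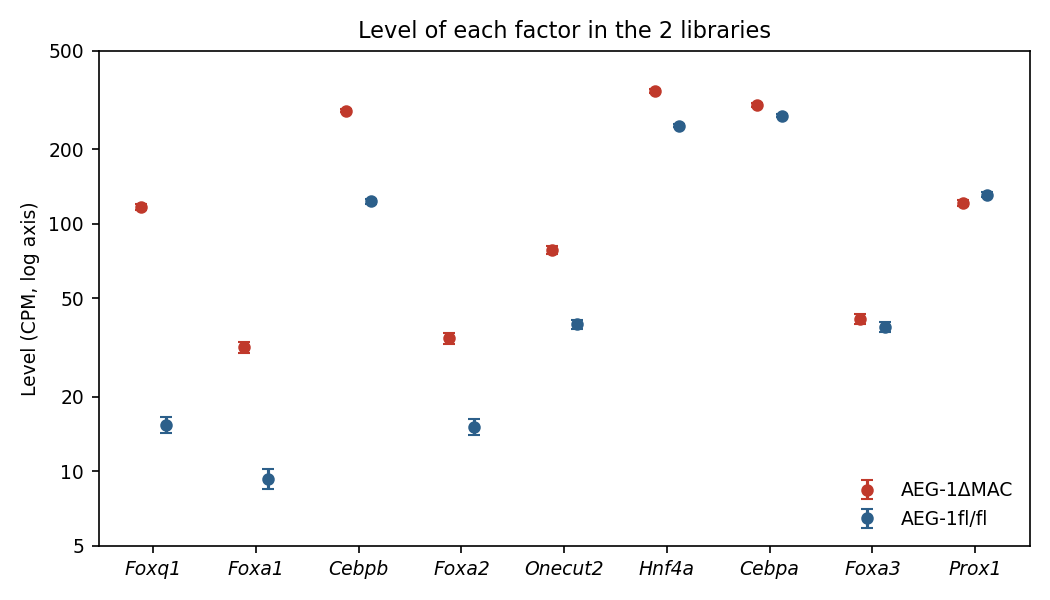
Level of each factor in CPM (log axis) in the AEG-1ΔMAC library (red) and the AEG-1fl/fl library (blue), with points for the library value and bars for the exact Poisson 95% interval, ordered by the ratio between libraries. The gap narrows from Foxq1, at 116.8 and 15.4 CPM, to Prox1, at 121.1 and 130.8 CPM.

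Foxq1 (ENSMUSG00000038415, chromosome 13, 31556134 to 31560976, plus strand, protein-coding) differed most of the 9 factors between the livers. Its level was 116.8 CPM (113.6 to 119.9) in AEG-1ΔMAC against 15.4 CPM (14.3 to 16.5) in AEG-1fl/fl. The log2 ratio was 2.93 (2.82 to 3.04), or 7.60-fold, which placed it 8th from the highest of 6933 genes. The difference ran through the section rather than resting on a few spots. Foxq1 had at least 1 UMI in 87.7% of the knockout's spots and in 24.8% of the control's, with no spot above 13 and 4 UMIs, respectively. When every spot was thinned to 10000 UMIs, which left out 26 and 106 shallower spots, the shares were 66.9% and 13.7%. At that equal depth the variance of Foxq1 over spots was 1.14 and 1.01 times its mean, where counting alone gives 1. The same quotient lay between 0.97 and 1.14 for all 9 factors in both libraries. With means as low as 1.17 and 0.15 UMIs per spot for Foxq1, this quotient stays near 1 even where levels vary. It therefore does not show that levels were even over spots.

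The Foxa subfamily was split. Foxa1 (ENSMUSG00000035451, chromosome 12, 57540628 to 57546916, minus strand) had 31.6 CPM (30.0 to 33.3) in AEG-1ΔMAC against 9.32 CPM (8.50 to 10.2) in AEG-1fl/fl, for a log2 ratio of 1.76 (1.61 to 1.92), the highest of the core factors. Foxa2 (ENSMUSG00000037025, chromosome 2, 148042877 to 148046969, minus strand) had 34.4 CPM (32.7 to 36.2) and 15.1 CPM (14.1 to 16.2), a log2 ratio of 1.19 (1.06 to 1.31). The UMIs of Foxa1 were thus found in 47.7% and 16.4% of spots and those of Foxa2 in 50.7% and 25.6%. Foxa3 (ENSMUSG00000040891, chromosome 7, 19013284 to 19023538, minus strand), whose protein binds the same kind of site, was nearly level at 41.1 CPM (39.3 to 43.0) and 38.2 CPM (36.5 to 40.0), a log2 ratio of 0.10 (0.01 to 0.20) that turned to between -0.019 and -0.037 under the other scalings of the libraries. A ratio of counts taken inside each library does not depend on that scaling. Foxa1 had 0.77 UMIs per Foxa3 UMI in AEG-1ΔMAC against 0.24 in AEG-1fl/fl, and Foxa2 had 0.84 and 0.40. The log2 ratio of Foxa1 exceeded that of Foxa3 by 1.66 (1.48 to 1.83) and that of Foxa2 exceeded it by 1.08 (0.93 to 1.24), so the relative counts of the 3 genes differed between these livers beyond counting error.

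The start-site regions of Foxa1 and Foxa3 are shown because these genes of the same subfamily differed in ratio. They are the 250 bases before the RefSeq start site (GRCm38.p6), read 5′ to 3′ on the gene's strand, at chr12:57546112-57546361 (minus strand) and chr7:19023540-19023789 (minus strand).
Foxa1: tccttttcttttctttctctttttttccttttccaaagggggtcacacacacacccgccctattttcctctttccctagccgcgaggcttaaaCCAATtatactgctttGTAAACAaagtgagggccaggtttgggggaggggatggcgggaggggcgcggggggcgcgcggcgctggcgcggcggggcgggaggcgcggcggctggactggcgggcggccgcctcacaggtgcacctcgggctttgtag
Foxa3: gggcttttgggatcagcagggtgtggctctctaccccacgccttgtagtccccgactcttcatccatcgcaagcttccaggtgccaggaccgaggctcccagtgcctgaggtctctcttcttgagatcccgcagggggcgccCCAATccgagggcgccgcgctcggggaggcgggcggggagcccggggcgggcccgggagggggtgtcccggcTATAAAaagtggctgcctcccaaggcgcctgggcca
Capitals mark matches to the motifs searched here on both strands. These were TATAAA, the letters of the TATA box, CCAAT, a site of ubiquitous activators, TGACG, the core of the cAMP response element, TGTTTAC, a forkhead site, CACGTG, the E-box of helix-loop-helix factors, and TTGCGCAA, the palindrome bound by C/EBP dimers. None of the motifs contains another. Foxa1 held a forkhead match 141 bases before the start, in GTAAACA on the printed strand, and such a match was found in 3.17% of 32851 promoter windows of this length. Foxa3 held a TATA match 36 bases before the start, as did 12.4% of the windows, and both genes held a CCAAT match, as did 33.8%. Foxa2, also higher in AEG-1ΔMAC, is not printed. None of its entries held a forkhead match, while a TATA match lay 208 bases before 1 start site and a CCAAT match 68 bases before another. The E-box, in 6.02% of the windows, was in none of the entries of these factors. A match is a description of the letters and not of binding.

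The C/EBP pair was split as well. Cebpb (ENSMUSG00000056501, chromosome 2, 167688915 to 167690418, plus strand) had 286.7 CPM (281.8 to 291.7) in AEG-1ΔMAC against 123.0 CPM (120.0 to 126.1) in AEG-1fl/fl, for a log2 ratio of 1.22 (1.18 to 1.26). Cebpa (ENSMUSG00000034957, chromosome 7, 35119293 to 35121928, plus strand) had 301.0 CPM (296.0 to 306.1) and 273.5 CPM (268.9 to 278.1). Its log2 ratio of 0.14 (0.10 to 0.17) was that of the median gene, and it lay between 0.014 and -0.0038 under the other scalings. Inside each library there were 0.95 Cebpb UMIs per Cebpa UMI in AEG-1ΔMAC against 0.45 in AEG-1fl/fl. Cebpb had a UMI in 99.0% and 87.2% of the spots of the knockout and the control, and in 94.3% and 69% at equal depth. Over the genes with a Cebp symbol, Cebpz included, together with Ddit3, which encodes an inhibitory partner, 6 of 7 genes averaged 10 CPM or more. Among these, Cebpb and Cebpd, an acute phase member at 27.2 and 13.6 CPM, were at least 2-fold higher, against 1.27% of all genes, 0 were lower, against 0.519%, and the median log2 ratio was 0.32. Cebpd stood just past the limit, and with the other scalings its log2 ratio of 1.0 became 0.86 to 0.88, short of 2-fold. Ddit3 was lowest at 0.06 (-0.12 to 0.24), a value that is uncertain because the files hold 2 rows with this symbol.

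The start-site regions of Cebpb and Cebpa are shown for the same reason, as the 250 bases before the RefSeq start site (GRCm38.p6) on the gene's strand, at chr2:167688665-167688914 (plus strand) and chr7:35119043-35119292 (plus strand), with matches to the same motifs in capitals.
Cebpb: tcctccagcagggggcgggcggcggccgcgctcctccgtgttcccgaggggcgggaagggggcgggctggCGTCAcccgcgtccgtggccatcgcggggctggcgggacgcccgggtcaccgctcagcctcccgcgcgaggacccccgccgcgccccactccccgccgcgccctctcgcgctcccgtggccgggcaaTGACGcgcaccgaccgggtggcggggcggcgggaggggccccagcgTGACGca
Cebpa: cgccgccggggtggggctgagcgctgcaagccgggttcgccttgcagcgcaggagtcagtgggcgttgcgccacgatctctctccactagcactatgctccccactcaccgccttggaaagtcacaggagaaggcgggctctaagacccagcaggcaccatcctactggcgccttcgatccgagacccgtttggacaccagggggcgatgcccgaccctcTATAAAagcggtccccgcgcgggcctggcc
Cebpb held 3 matches to TGACG, on either strand, at 180, 53 and 7 bases before the start, and no other factor with a promoter entry held this motif, which occurred in 17.8% of all windows. Cebpa held a TATA match 30 bases before the start. Neither window held the C/EBP site, which occurred in 0.164% of all windows. RefSeq promoter entries were matched for 7 of the 9 factors, all except Foxq1 and Onecut2.

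Onecut2 (ENSMUSG00000045991, chromosome 18, 64340020 to 64400987, plus strand) had 78.3 CPM (75.7 to 80.9) in AEG-1ΔMAC against 39.2 CPM (37.5 to 41.0) in AEG-1fl/fl. Its log2 ratio of 1.0 (0.92 to 1.08) fell just short of the 2-fold rule, and it had a UMI in 77.4% and 52.0% of spots. Hnf4a (ENSMUSG00000017950, chromosome 2, 163506808 to 163572910, plus strand) had 343.9 CPM (338.5 to 349.3) and 249.2 CPM (244.8 to 253.6). The log2 ratio of Hnf4a was 0.46 (0.43 to 0.50), above the median gene but inside the 5th to 95th percentiles of all genes. Prox1 (ENSMUSG00000010175, chromosome 1, 190118035 to 190170714, minus strand) was the only factor with a lower level in AEG-1ΔMAC before any other scaling was applied, at 121.1 CPM (117.9 to 124.3) against 130.8 CPM (127.7 to 134.0), a log2 ratio of -0.11 (-0.16 to -0.06). Among the 9 factors, then, 6 had an interval above the median of all genes, 1 (Prox1) had an interval below it, and the intervals of Cebpa and Foxa3 included it.

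Foxq1 and Cebpb were next set against each core factor by the difference of the log2 ratios, in which the scaling between libraries cancels. Foxq1 stood apart from every core factor. The difference was smallest against Foxa1, at 1.16 (0.98 to 1.35), and largest against Prox1, at 3.04 (2.92 to 3.16), with 2.46 (2.35 to 2.58) against Hnf4a. Inside the libraries, Foxq1 had 0.34 UMIs per Hnf4a UMI in AEG-1ΔMAC against 0.062 in AEG-1fl/fl. Cebpb did not stand apart from the core as a whole. It lay below Foxa1 by a difference of -0.54 (-0.70 to -0.39), and its difference from Foxa2 was 0.03 (-0.10 to 0.17), an interval that includes 0 and allows at most a small difference either way. Cebpb lay above Onecut2 by 0.22 (0.13 to 0.31), above Hnf4a by 0.76 (0.70 to 0.81), and above Cebpa, Foxa3 and Prox1 by 1.08, 1.12 and 1.33. Foxq1 exceeded Cebpb by 1.71 (1.59 to 1.82).

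Zonation was examined with an index that used the zone 1 (periportal) and zone 3 (pericentral) markers of the study and none of the 9 factors. Spots of each library were ranked on it and divided into 3 equal parts, the zone 1 part, the middle part and the zone 3 part. Landmark genes that did not enter the index followed it in both libraries, with a median log2 ratio of zone 3 over zone 1 of -1.49 in AEG-1ΔMAC and -1.11 in the control for 6 zone 1 genes, and of 2.40 and 2.50 for 5 zone 3 genes. The same zone 3 landmarks had a median log2 ratio between the genotypes of 0.98, against 0.14 for the zone 1 landmarks. The part of this shift in the values below was not tested.

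Foxq1 was periportal in both livers. It had 151.2, 117.9 and 80.9 CPM in the zone 1, middle and zone 3 parts of AEG-1ΔMAC and 18.5, 15.4 and 12.1 CPM in those of AEG-1fl/fl. The log2 ratio of zone 3 over zone 1 was -0.90 (-1.0 to -0.80) and -0.61 (-0.87 to -0.35), respectively, for a difference of -0.29 (-0.57 to -0.02). The interval of this difference included 0 with the landmark index, at -0.24 (-0.51 to 0.04), in spots matched on UMIs, at -0.29 (-0.61 to 0.03), and in the outer 10% of spots, at -0.43 (-0.98 to 0.12). Over 10 equal bins of spots along the index, Foxq1 went from 173.1 CPM in the most periportal bin to 60.8 CPM in the most pericentral bin of AEG-1ΔMAC. Foxq1 was the only factor past 1.5-fold, and it was so towards zone 1 in both libraries, as were 2.03% of all genes in AEG-1ΔMAC against 1.75% in AEG-1fl/fl. None of the 9 factors was 1.5-fold higher in zone 3, against 2.97% and 2.84% of all genes. With only the outer 10% of spots at each end, the ratio of Foxq1 was -1.51 and -1.08, where 3.36% and 3.07% of all genes were past 1.5-fold towards zone 1. In those spots Cebpb and Onecut2 also passed 1.5-fold, towards zone 3 and in AEG-1fl/fl only, at 0.82 and 0.71, as did 9.09% of all genes there. In AEG-1ΔMAC, where 8.47% did, they had 0.51 and 0.47.

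Cebpb, Foxa1 and Onecut2 sloped the other way, towards zone 3, in both livers. Cebpb had 249.6 CPM in the zone 1 part and 316.0 CPM in the zone 3 part of AEG-1ΔMAC, and 110.3 and 145.8 CPM in those of the control, for log2 ratios of 0.34 (0.28 to 0.40) and 0.40 (0.31 to 0.49). Foxa1 had log2 ratios of 0.44 (0.25 to 0.63) and 0.49 (0.16 to 0.82), and Onecut2 of 0.30 (0.18 to 0.41) and 0.48 (0.32 to 0.64). These exceeded the median over all genes, which was 0.09 in AEG-1ΔMAC against 0.07 in AEG-1fl/fl. The differences between the genotypes in the gradients of Cebpb, Foxa1 and Onecut2, at -0.06 (-0.17 to 0.05), -0.05 (-0.42 to 0.32) and -0.18 (-0.38 to 0.01), had intervals that include 0, though in the outer 10% of spots that of Cebpb was -0.30 (-0.50 to -0.10). Foxq1 and Cebpb thus had opposite gradients in both libraries. Over the 20 bins of the 2 libraries, each library centred on its own mean, their log2 levels had a Pearson correlation of -0.87, whereas Cebpb had 0.83 with Foxa1 and 0.83 with Onecut2. The bins share libraries and depth and are no replicates, so these coefficients are a description.

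The remaining factors had shallow gradients, except Foxa3 in AEG-1ΔMAC, whose gradient was as large in size as that of Foxa1. Hnf4a was nearly flat at -0.10 (-0.15 to -0.04) and -0.09 (-0.15 to -0.03), and Foxa2 had 0.23 (0.05 to 0.41) in AEG-1ΔMAC against 0.10 (-0.15 to 0.35) in AEG-1fl/fl. The Foxa3 gradient ran towards zone 1 in the knockout, with -0.44 (-0.60 to -0.27) for AEG-1ΔMAC against -0.12 (-0.28 to 0.05) in the control, where the interval included 0. Cebpa had 0.03 (-0.03 to 0.09) and -0.19 (-0.25 to -0.13), and Prox1 had 0.08 (-0.02 to 0.17) and -0.08 (-0.17 to 0.01). The gradient of Cebpa differed between the livers by 0.22 (0.14 to 0.31), and by 0.13 to 0.29 with the other settings of the index and spots, beyond counting error in each. For Foxa3 the difference was -0.32 (-0.55 to -0.10), but -0.18 (-0.59 to 0.22) in the outer 10% of spots. For Prox1 it was 0.16 (0.03 to 0.28), and 0.32 (0.08 to 0.55) in the outer 10% of spots. It was 0.07 (-0.05 to 0.20) with the landmark index and 0.12 (-0.02 to 0.27) in spots matched on UMIs, where the intervals included 0.

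**Figure D2:**
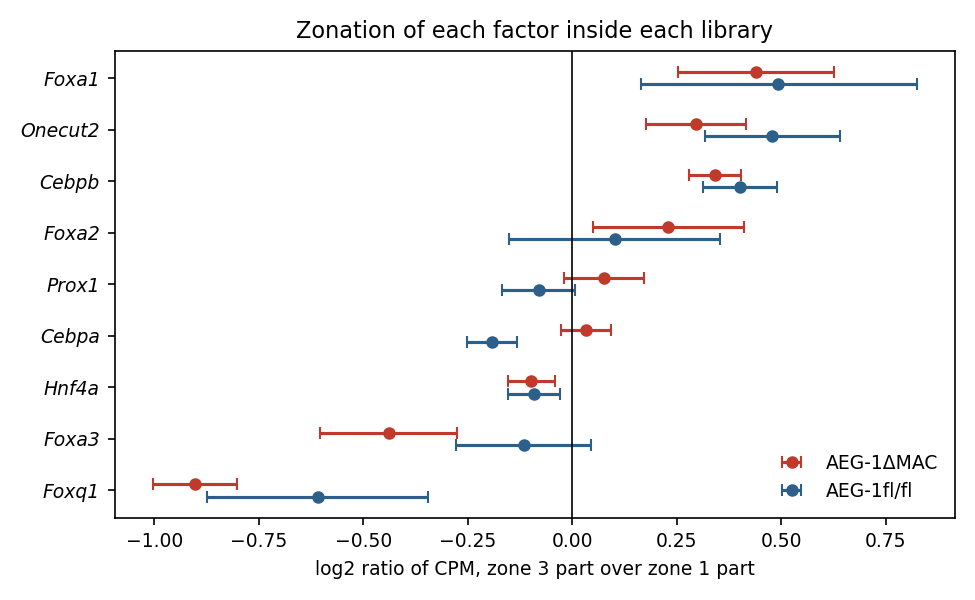
Zonation of each factor as the log2 ratio of CPM in the zone 3 part over the zone 1 part, inside the AEG-1ΔMAC library (red) and the AEG-1fl/fl library (blue), with exact 95% intervals as bars. Foxq1, at -0.90 and -0.61, lies farthest towards zone 1, and Foxa1, at 0.44 and 0.49, farthest towards zone 3.

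**Figure D3:**
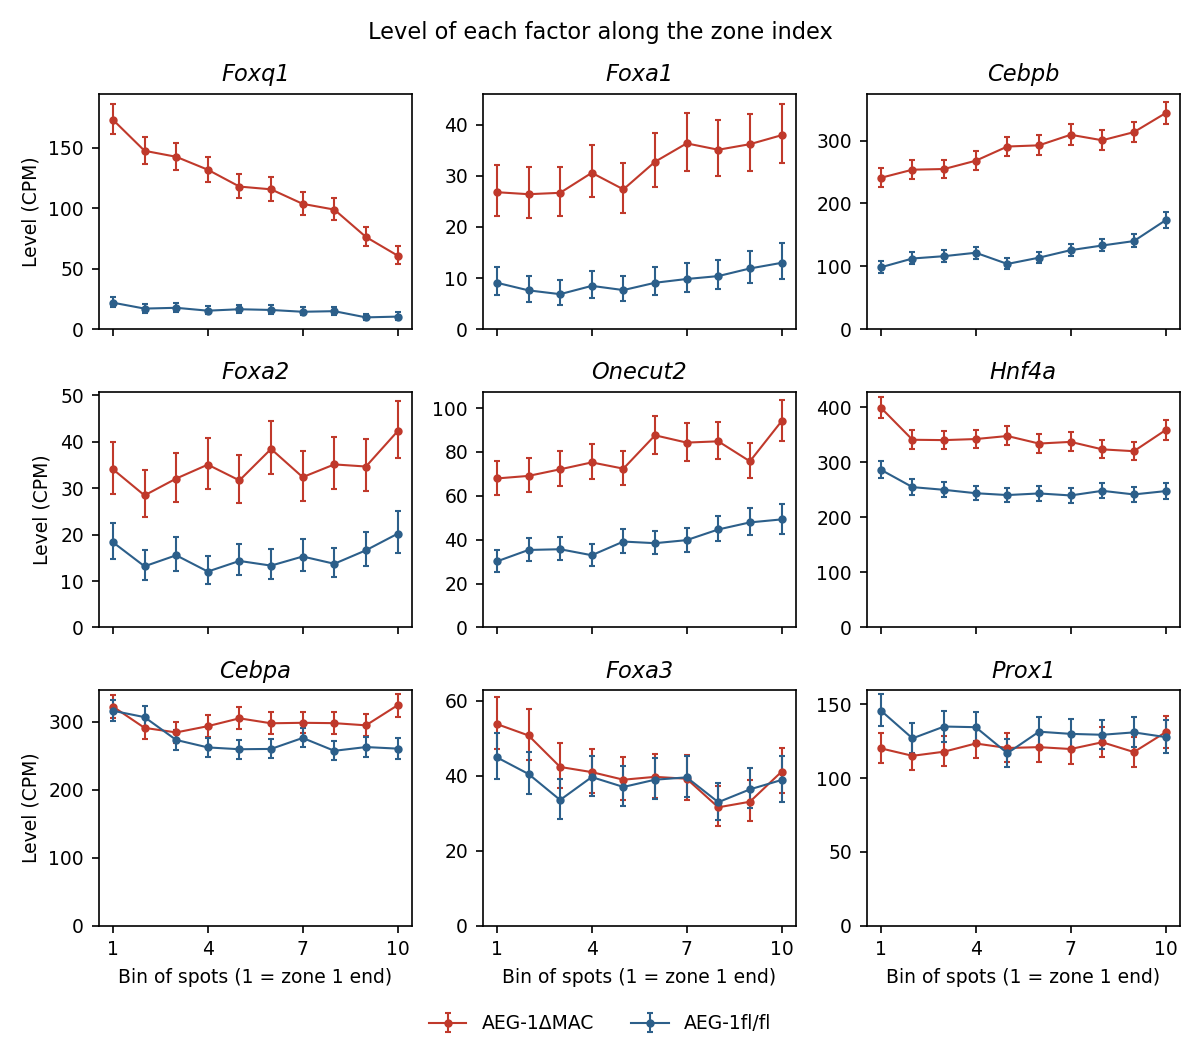
Level of each factor in CPM over 10 equal bins of the zone index, from the zone 1 end (1) to the zone 3 end (10), in AEG-1ΔMAC (red) and AEG-1fl/fl (blue), with exact Poisson 95% intervals as bars and an axis from 0 for each factor. The lines of Foxq1, Foxa1, Cebpb, Foxa2, Onecut2 and Hnf4a stay apart along the whole index, whereas those of Cebpa, Foxa3 and Prox1 meet or cross.

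The ratio between the genotypes was present along the lobule. For Foxq1, Foxa1, Cebpb, Foxa2, Onecut2 and Hnf4a, the lowest bin of AEG-1ΔMAC lay above the highest bin of AEG-1fl/fl. For Foxq1 these bins had 60.8 and 21.9 CPM, and for Cebpb 240.8 and 173.2 CPM. By zone part, the log2 ratio of Foxq1 was 3.03 (2.86 to 3.21) in the zone 1 part, 2.93 (2.75 to 3.12) in the middle part and 2.74 (2.52 to 2.96) in the zone 3 part. That of Cebpb was 1.18, 1.37 and 1.12, highest in the middle part. The core factors had a median of 0.45, 0.51 and 0.44 in these parts. Foxa3 and Cebpa moved in opposite directions with position. Foxa3 went from 0.26 (0.10 to 0.41) in the zone 1 part to -0.07 (-0.24 to 0.11) in the zone 3 part, and Cebpa from -0.00 (-0.06 to 0.06) to 0.22 (0.16 to 0.28).

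**Figure D4:**
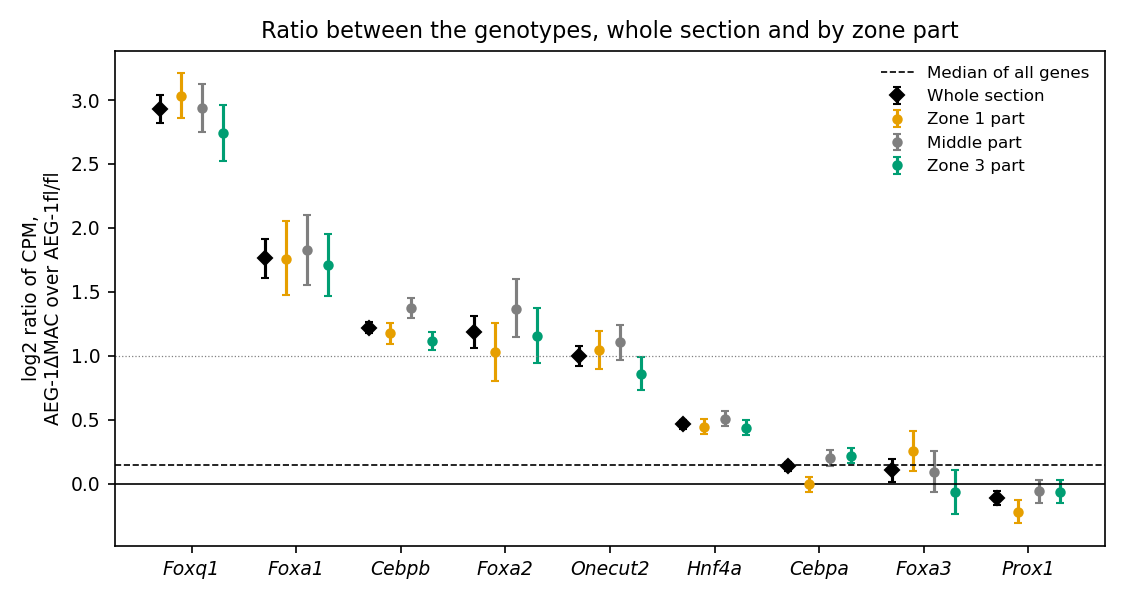
Ratio of levels between the genotypes (log2 of AEG-1ΔMAC CPM divided by AEG-1fl/fl CPM) for each factor over the whole section (black diamonds) and for each of the 3 zone parts (coloured points), with exact 95% intervals as bars; the dashed line is the median of all genes at 0.15, the solid line is 0 and the dotted line is a 2-fold difference. Foxq1 lies near 3 in every part, and Cebpa, Foxa3 and Prox1 lie around the dashed and solid lines.

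The genes whose profile over the bins was most like that of a factor were listed for Hnf4a, Foxq1 and Cebpb, among genes that averaged 50 CPM or more. For Foxq1 they were Slc7a2 (a cationic amino acid transporter), Uroc1 (urocanase, in histidine breakdown) and Gls2 (liver glutaminase), with correlations of 0.970, 0.966 and 0.965 over 20 bins. Gls2 is itself a marker of the zone index. None of them shared the difference between the genotypes seen for Foxq1, with log2 ratios of 0.28, -0.21 and -0.31. For Cebpb they were Tmem243, Dlat (a subunit of pyruvate dehydrogenase) and Rdh16 (a retinol dehydrogenase) at 0.947, 0.945 and 0.944. The genes most like Hnf4a were Atp5b and Atp5a1, subunits of mitochondrial ATP synthase, and Rhou, at 0.922, 0.920 and 0.920.

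Several of these factors are also expressed outside hepatocytes, so the markers of the other cell types were measured. Hepatocyte markers were present throughout, with 6 of 6 genes between 566 and 87957 CPM in AEG-1ΔMAC and between 448 and 141947 CPM in AEG-1fl/fl. Their sum was lower in AEG-1ΔMAC, at a log2 ratio of -0.53, with 4 of 6 genes lower. Kupffer cell markers summed to 540.8 and 521.8 CPM over 4 genes (log2 ratio 0.05), of which Clec4f and Cd5l were slightly higher, Vsig4 was at -0.07 (-0.16 to 0.01) and Marco was lower, at 13.9 against 36.1 CPM (log2 ratio -1.38, -1.51 to -1.24). Cholangiocyte markers, of the cells in which Onecut2 and Foxa2 are also expressed, summed to 73.5 and 62.3 CPM over 4 genes (0.24). Most of this was Spp1, at 67.1 and 56.9 CPM. Lymphatic endothelial markers, of cells that express Prox1, summed to 21.5 and 21.4 CPM over 3 genes, most of it Flt4 at 18.4 and 19.9 CPM, while Mmrn1 had 2.62 and 1.13 CPM (log2 ratio 1.21, 0.74 to 1.69). The markers of stellate cells, sinusoidal endothelium and smooth muscle had sums that were close between the libraries, at 406.6 and 408.2, 356.1 and 370.4, and 26.6 and 25.3 CPM. Neutrophil markers, of cells that express Cebpb, summed to 2.68 CPM in AEG-1ΔMAC against 15.8 CPM in AEG-1fl/fl over 3 genes, a direction opposite to that of Cebpb. T cell markers were higher in AEG-1ΔMAC, at 10.8 and 5.25 CPM, and B cell markers lower, at 5.15 and 10.5 CPM, each over 3 genes. None of these marker genes had 0 UMIs, and their part in the ratios of the factors was not tested.

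The 5% of spots with the highest share of UMIs from each of 9 such marker lists, that is 107 spots in AEG-1ΔMAC against 127 in AEG-1fl/fl per list, were compared with all other spots of the library. The log2 ratios of rich over other spots lay between -0.69 and 0.38. Cebpb was at 0.02 (-0.09 to 0.13) and 0.03 (-0.15 to 0.20) in neutrophil-rich spots. The 3 neutrophil genes had only 122 UMIs in the whole AEG-1ΔMAC library and 794 in AEG-1fl/fl, so few UMIs mark a rich spot. The neutrophil values therefore cannot say whether Cebpb follows these cells. In spots rich in Kupffer cell markers, Cebpb was at -0.12 (-0.25 to 0.00) and -0.01 (-0.20 to 0.18). It was below 0 in both libraries in spots rich in smooth muscle markers, at -0.30 and -0.23, with both intervals off 0. Among the 9 lists, the only other such case was Hnf4a in spots rich in sinusoidal endothelial markers, at -0.18 (-0.30 to -0.06) and -0.20 (-0.34 to -0.06). Prox1 was at 0.06 (-0.12 to 0.24) and 0.04 (-0.15 to 0.21) in spots rich in lymphatic markers. That list had 979 and 1079 UMIs in the whole libraries, of which Flt4 alone held 837 and 1000. Spots so weakly marked cannot say whether Prox1 follows lymphatic endothelium. Onecut2 was at 0.18 (-0.03 to 0.39) and -0.04 (-0.34 to 0.25) where cholangiocyte markers were rich. Of the 3340 and 3134 UMIs of the cholangiocyte list, Spp1 alone held 3049 and 2863, so these spots were ranked mostly on Spp1. Values in them cannot say by themselves whether a factor follows cholangiocytes. Foxa2, also a gene of cholangiocytes, was at -0.49 (-0.91 to -0.11) and -0.18 (-0.69 to 0.30) there, while Foxa3 was at 0.38 (0.10 to 0.65) in AEG-1ΔMAC but -0.45 (-0.80 to -0.12) in AEG-1fl/fl. In spots rich in Kupffer cell markers the control had Foxa2 at -0.69 (-1.43 to -0.04) and Foxa3 at -0.52 (-0.94 to -0.13), and the knockout had -0.17 (-0.56 to 0.19) and -0.22 (-0.58 to 0.11). Foxq1 was higher in cholangiocyte-rich spots of AEG-1ΔMAC, at 0.38 (0.21 to 0.54), while AEG-1fl/fl had -0.28 (-0.82 to 0.20). In spots rich in Kupffer cell markers it was likewise higher in AEG-1ΔMAC, at 0.25 (0.07 to 0.42), and AEG-1fl/fl had -0.50 (-1.18 to 0.11). The hepatocyte markers were not among the 9 lists. Where they were rich, Foxq1 was also higher in the knockout, at 0.25 (0.07 to 0.42). The control value there was 0.37, with an interval from -0.08 to 0.78. The rise of Foxq1 in the knockout was therefore not particular to spots rich in cholangiocyte or Kupffer cell markers. Cebpb was lower in hepatocyte-rich spots of both libraries, at -0.27 and -0.33, as was Onecut2, at -0.52 and -0.34. The part of the Foxq1 gradient along the zone index in these values was not tested.

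The wider network of liver-enriched transcription factors was then counted from a fixed list of 28 others, of which 26 averaged 10 CPM or more. In AEG-1ΔMAC, 3 of the 26 were at least 2-fold higher, against 1.27% of all genes, and 0 were lower, against 0.519%, and the median log2 ratio was 0.23, against 0.15 over all genes. Onecut1 (HNF6), the paralog of Onecut2 and a partner of HNF4A and FOXA factors at liver enhancers, had 125.2 CPM in AEG-1ΔMAC against 10.3 CPM in AEG-1fl/fl, for a log2 ratio of 3.60 (3.47 to 3.73) that was above that of Foxq1. Hhex, a homeobox factor of early liver development, had 112.6 and 34.5 CPM, a log2 ratio of 1.71 (1.63 to 1.79), close to that of Foxa1. Cebpd was at 1.0 (0.87 to 1.14) and lost the call with the other scalings, under which Onecut1 and Hhex kept it. At the low end was Nr0b2 (SHP), a corepressor in bile acid signalling, at -0.58 (-0.65 to -0.52). Most of the network differed by much less than Foxq1, Foxa1 or Cebpb. In the forkhead family, 11 of 44 genes averaged 10 CPM or more, and 3 were at least 2-fold higher, against 1.27% of all genes. These were Foxq1, Foxa1 and Foxa2, which are among the 9 factors. The lowest of these forkhead genes was Foxp1 at 0.07 (-0.05 to 0.19).

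**Figure D5:**
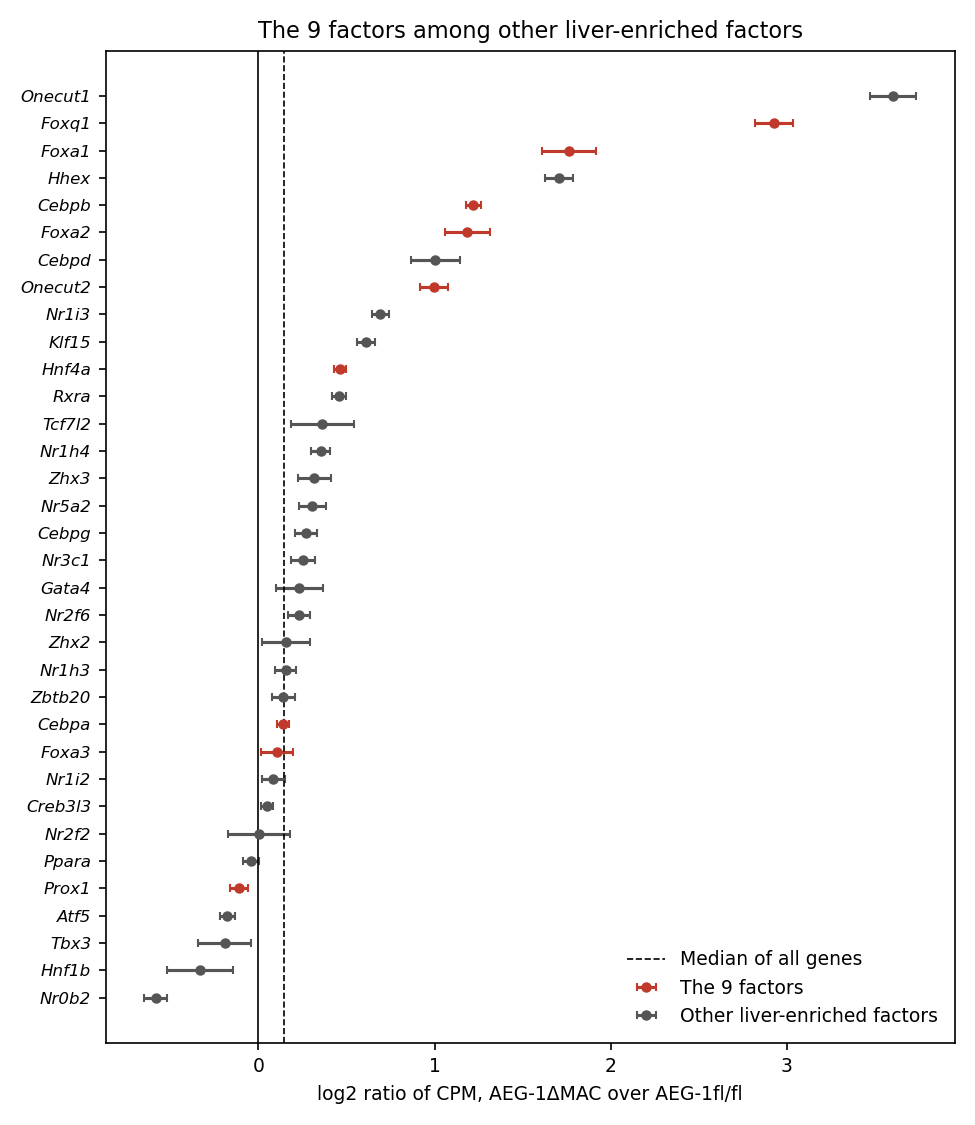
Ratio of levels between the genotypes (log2 of AEG-1ΔMAC CPM divided by AEG-1fl/fl CPM) for the 9 factors (red) and for 25 of the 26 other liver-enriched transcription factors that averaged 10 CPM or more (grey), with exact 95% intervals as bars and the median of all genes as a dashed line. Onecut1, Foxq1, Foxa1 and Hhex lie highest, and most factors lie between -0.58 and 0.7.

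Genes known to depend on these factors were counted by the same rule, whose shares over all genes are 1.27% higher and 0.519% lower. Beside shares this low, a count of 0 in a list of 7 to 14 genes is no result about the list. Of 14 genes known to be activated by HNF4A, all at 10 CPM or more, 0 were 2-fold higher and 0 lower, with a median log2 ratio of 0.07 and a range from -0.31 for Ttr (transthyretin) to 0.40 for Cyp27a1 (a sterol hydroxylase). Of 7 genes known to be bound by FOXA factors and measured at that level, again 0 were 2-fold apart in either direction, with a median of 0.18 and a range from -0.69 for Alb to 0.78 for Pck1, the rate-limiting enzyme of gluconeogenesis. Of 10 genes known to be activated by C/EBP factors, the 9 that averaged 10 CPM or more also had a median of 0.18 and none 2-fold apart, from -0.95 (-1.0 to -0.91) for Apcs (serum amyloid P) to Pck1. The other scalings shift every log2 ratio by -0.12 to -0.14, which takes Apcs past 2-fold lower, so this count of 0 depends on the scaling. The 10th, Asns (asparagine synthetase), fell below the minimum at 1.23 CPM (56 UMIs) in AEG-1ΔMAC against 14.7 CPM (739 UMIs) in the control, and its log2 ratio of -3.58 (-3.99 to -3.18) was larger in size than that of Foxq1 and opposite in direction to that of Cebpb. Pck1 is on both lists and is a zone 1 marker of the index. Of 9 fetal liver and progenitor genes, Sox9, a marker of bile duct and progenitor cells, was the only one at 10 CPM or more, at 13.8 CPM in AEG-1ΔMAC against 25.9 CPM in AEG-1fl/fl, for a log2 ratio of -0.91 (-1.05 to -0.77). The shift of the other scalings takes Sox9 past 2-fold lower as well.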

How the data were processed

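ST libraries of 1 AEG-1ΔMAC and 1 AEG-1fl/fl liver section were used, both with the same slide identifier in the labels, and groups were taken from the genotype labels. The deposited matrices hold raw counts of UMIs per gene and spot. Per the labels, the authors used Visium probes for fixed tissue, and their processing notes name Space Ranger 2.0.1, Seurat 4.3.0 and the mm10 build. The deposited matrices hold 2149 and 2543 barcodes, the numbers the study gives after its filter. That filter (at most 50000 UMIs and 100 to 7000 genes) left 2140 and 2540 spots when applied here. The libraries share 1782 barcodes, which are array positions.

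UMIs were summed over spots and scaled to CPM, with exact Poisson intervals. Ratios had exact conditional binomial (Clopper-Pearson) intervals and differences of ratios Wald intervals, all at 95%. With 1 library per genotype, no p-value was computed. A gene was counted at a mean of at least 10 CPM, a ratio of at least 2 and an interval on the same side of 1. Profiles used log2(CPM + 1) over 10 bins a library. The zone index was the mean scaled value of 3 zone 3 markers of the study (Cyp2e1, Cyp1a2, Oat) minus that of its 6 zone 1 markers (Arg1, Cyp2f2, Gls2, Hal, Hsd17b13, Pck1).

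The 9 factors and the gene lists were chosen with earlier results of these data known. Named were all 9, each list's genes at least 2-fold apart and its highest and lowest gene, and the 3 genes most like Hnf4a, Foxq1 and Cebpb; other genes named, and the members given in marker-rich spots, were chosen after their values were seen. Of the listed genes, 1 is counted but not reported here by name. Gene coordinates came from the GENCODE annotation of GRCm38, the assembly of mm10. The scripts were tested on simulated data. Alternatives were TMM factors (edgeR 4.0.16), median-of-ratios size factors, a total without the 50 most abundant genes, all deposited spots, spots matched on UMIs, the mean over spots, other minimum levels and folds, landmark genes for the index, the outer 10% of spots, and the richest 10% of spots. Python 3.11.15 with numpy 2.4.6, scipy 1.17.1 and pandas 2.3.3 was used.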

Additional observations from a re-analysis of the deposited data

How the results depend on the processing

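With TMM factors, median-of-ratios size factors and a total without the 50 most abundant genes, all ratios shifted by -0.12, -0.13 and -0.14. The log2 ratio of Foxq1 was then 2.80, 2.80 and 2.78, that of Cebpb 1.10, 1.09 and 1.08, and the core median 0.34, 0.33 and 0.32. Foxa3 changed sign, to -0.019, -0.025 and -0.037, as did Cebpa without the 50 genes, to -0.0038. This follows from the shift. Genes at least 2-fold higher and lower numbered 194 and 173 at a minimum of 1 CPM, 35 and 12 at 50 CPM, and 298 and 124 at 1.5-fold. At 50 CPM, 2 factors were counted as higher, since Foxa1 and Foxa2 fell below the minimum. In 1761 spots per library matched on UMIs, 5 of the 9 factors had a ratio of at least 2. The 42 recomputed differences of ratios kept their direction and moved by less than their counting error, and of 54 recomputed zonation values, 12 moved by more and none with an interval off 0 changed sign. No paired analysis was possible because each genotype had 1 library. Depth limits Foxa1 most, with 1437 and 469 UMIs.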
